A study of Mus musculus with 7 samples.

Results

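The neuronal differentiation genes were 10 genes that mark or steer the step from a dividing neural precursor to a young neuron: Tubb3, Map2, Dcx, Stmn2, Elavl3, Elavl4, Dlx1, Dlx2, Gad1 and Rest. They were chosen by name and not by a cut on a value measured in these samples, but with earlier results of these data known. Each gene identifier was matched to its symbol with the mouse Gencode annotation of the GRCm38 build, and all 10 genes were found among the 55335 genes of the count tables. Expression was measured in neural stem cells (NSCs), primary cultures of brain precursor cells that were kept dividing with the growth factors EGF and bFGF. Long nanopore reads were obtained from unamplified cDNA of their polyadenylated RNA. All cells were of mouse strain FVB/N. The 4 wild-type (WT) samples carried the genotype Smchd1 Wild-type and the 3 *Smchd1*-null samples the genotype Smchd1MommeD1, a loss-of-function allele of Smchd1, which encodes a repressor of chromatin. Both genotypes were grown in the same medium, and the sources describe growth in proliferation medium only. Sequencing ran in 2 batches. Batch 1 held WT replicate 2 with *Smchd1*-null replicates 1 and 2, batch 2 held WT replicates 3 and 4 with *Smchd1*-null replicate 3, and WT replicate 1 was run in both. The age and sex of the animals and whether the replicates came from separate animals are not given in the sources used here, so p-values measure the spread between these samples, which may be technical.

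A neural stem cell that commits to the neuronal lineage leaves the cell cycle, extends processes and switches on proteins of the neuronal cytoskeleton. Tubb3 (a neuronal beta-tubulin), Map2 (a microtubule-binding protein of dendrites), Dcx (a microtubule-binding protein of migrating young neurons) and Stmn2 (a stathmin of growth cones) belong to this cytoskeleton, and Elavl3 and Elavl4 are neuronal proteins that bind and stabilise RNA. Dlx1 and Dlx2 are homeobox factors of the ventral forebrain that direct precursors to inhibitory interneurons, and Gad1 makes their transmitter GABA. Rest works the other way: it is a DNA-binding repressor that keeps many neuronal genes silent in stem cells and in cells outside the nervous system.

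The 7 libraries held between 2.74 and 7.74 M (mega) counts. Expression is given as CPM, the counts per M counts of the scaled library size, and 3 counts were worth between 0.399 and 1.13 CPM depending on the library. Smchd1 itself ranged from 55.7 to 74.7 CPM in WT and from 12.8 to 18.4 CPM in *Smchd1*-null samples (log2 fold change of -2.15 with SE 0.18, limma, adjusted p = 0.00011), lower in each *Smchd1*-null library than in any WT library. All 10 neural stem cell markers passed the filter on low counts, among them Nes at 211 to 409 CPM and Sox2 at 289 to 431 CPM. Their summed level was 8113 to 12598 CPM in WT and 7892 to 9300 CPM in *Smchd1*-null samples. The largest part of this sum was Fabp7 at 4511 to 9464 CPM, highest in WT replicate 4, where Nes was lowest. Markers of other cell types were also summed. Microglial markers reached at most 2.06 CPM (3 of 7 at 0 in every library), endothelial and mural markers at most 5.32 CPM and fibroblast markers at most 3.77 CPM. Ependymal markers ranged from 22.2 to 42.0 CPM, nearly all of it from Foxj1. Of 14 markers of postmitotic neurons, 6 of which are the cytoskeletal and ELAV genes described here, 9 passed the filter. Outside those 6, Rbfox3, Syp, Snap25 and Syn1 were at 7.37 CPM or less in every library. Nefl reached at most 1.20 CPM. Nefm, a neurofilament that was not tested after filtering, had 0.262 to 2.06 CPM in WT and 2.16 to 4.50 CPM in *Smchd1*-null libraries. These did not overlap, but narrowly: WT replicate 4 had 12 counts and *Smchd1*-null replicate 3 had 10. Of the genes that were tested, 5.53% did not overlap. Slc17a6 and Slc17a7, transporters of excitatory neurons, were at 0.751 CPM or less. WT replicate 4 stood apart in glial markers, as described beside Dcx, and it was also the highest library in 4 of the 9 tested postmitotic neuron markers.

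Of the 10 genes, 7 passed the filter and 3, Stmn2, Dlx1 and Dlx2, had too few reads to be tested. By level per kilobase of gene length, in WT means, the order ran from Map2 at 21.3 CPM per kb to Elavl4 at 11.4, Tubb3 at 5.68, Elavl3 at 4.46, Rest at 3.87, Dcx at 1.19, Gad1 at 0.322, Dlx2 at 0.150, Stmn2 at 0.132 and Dlx1 at 0.0525. In this order only 3 neighbouring pairs had WT ranges that did not overlap: Map2 was above Elavl4, Elavl4 above Tubb3 and Rest above Dcx in 4 of 4 WT libraries, and the same 3 orders were seen in 3 of 3 *Smchd1*-null libraries. The remaining neighbours overlapped between libraries. Without division by length the order of WT means was Map2, Elavl4, Elavl3, Rest, Dcx, Tubb3, Gad1, Stmn2, Dlx2 and Dlx1. The places of Tubb3, Stmn2 and Dlx2 thus depend on the scale. In CPM, Rest was above Dcx in only 3 of 4 WT libraries, and their ranges overlapped. Neighbours without overlap in CPM were Map2 above Elavl4 and Tubb3 above Gad1. The study expects reads of unfragmented cDNA to be free of length bias in theory and found only a weak association with expression. Division by length may therefore distort the order. In bulk RNA, fewer cells of a type and less RNA per cell cannot be told apart, so these levels do not say how many cells of a culture carried each transcript.

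**Figure D1:**
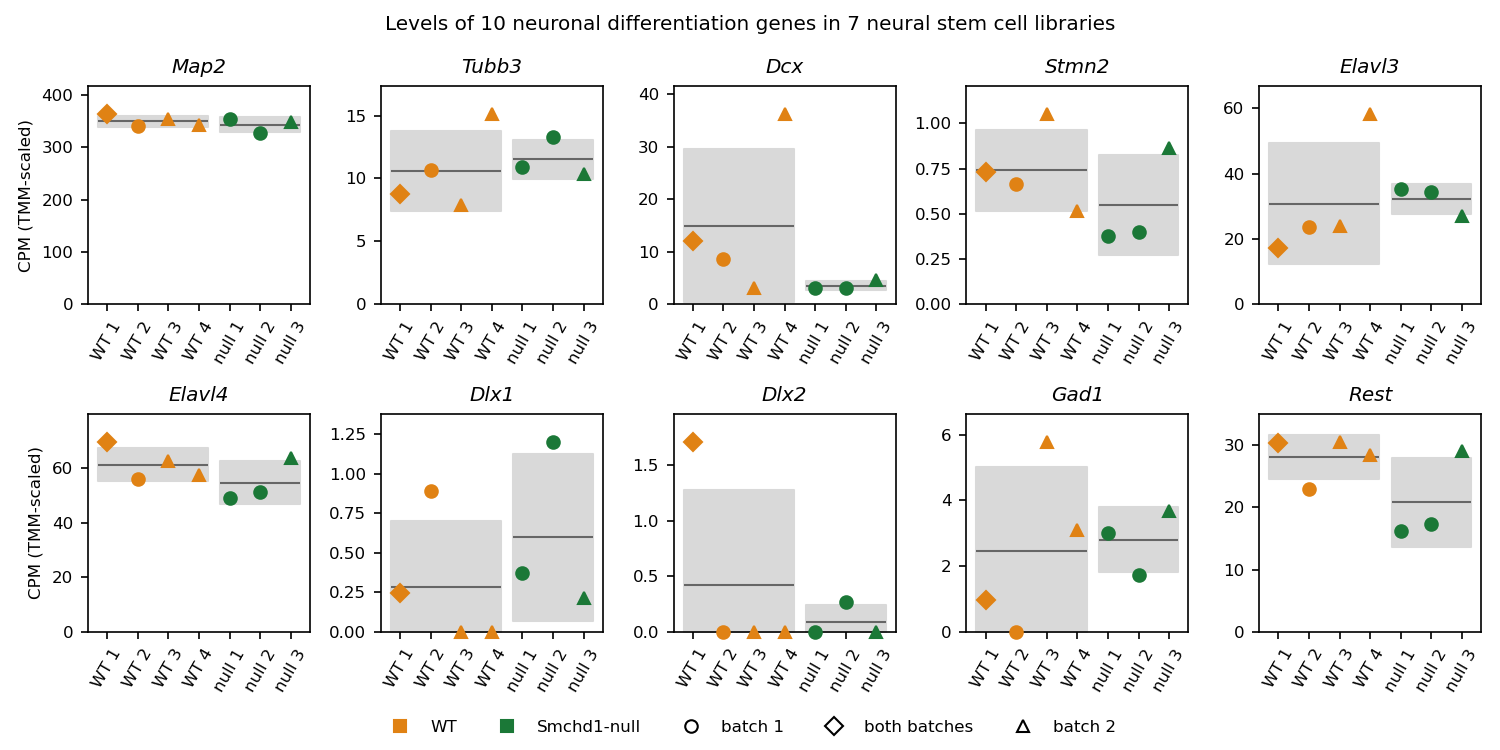
CPM of each of the 10 genes in the 7 libraries, on a linear axis of its own per gene that starts at 0. Symbols give genotype by colour and batch by shape, the line is the group mean and the grey band the mean ± SD; Map2 stays between 327 and 362 CPM, while Dcx reaches 36.2 CPM in WT replicate 4 and lies between 3.00 and 11.97 CPM elsewhere.

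Between genotypes, 0 of the 7 tested genes passed an adjusted p of 0.05 and 0 passed 0.25 (limma, Benjamini-Hochberg adjustment over 13305 genes). Of all genes tested, 12 (0.0902%) passed 0.05 and 144 (1.08%) passed 0.25. At an unadjusted p under 0.05, limma called 2 of the 7, Rest and Dcx, where it called 13.9% of all genes. The edgeR test called 1 of the 7 at this level, Dcx, and DESeq2 also called 1, where they called 5.07% and 4.46% of all genes. At an adjusted p of 0.25 they called 0 of the 7, and 0.0601% and 0.241% of all genes. For 0 of the 7 were the *Smchd1*-null libraries all above or all below the WT libraries, which was the case for 5.53% of all genes. The fitted change was upward for 3 genes and downward for 4, with a median log2 fold change of -0.04 against 0.0049 over all genes tested.

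**Figure D2:**
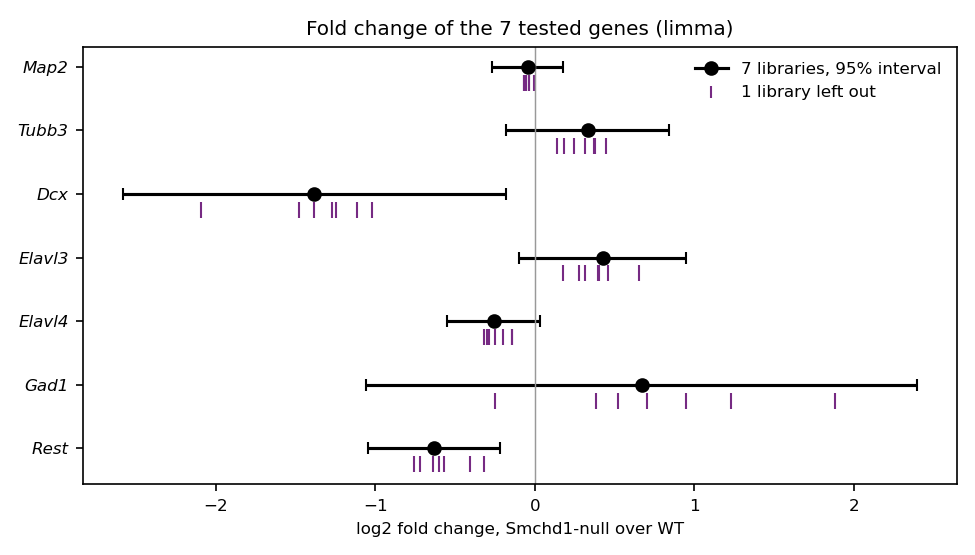
Log2 fold change of *Smchd1*-null over WT for the 7 tested genes, with the 95% confidence interval of the fit to 7 libraries (black) and, below each, the values with 1 library left out (purple ticks). Only the intervals of Dcx (-2.58 to -0.18) and Rest (-1.05 to -0.22) lie to the left of 0 before adjustment, and the interval of Map2 (-0.27 to 0.18) is the narrowest.

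Map2 was the steadiest of the tested genes over the WT libraries, and Dcx was the most variable after Gad1. Elavl3 carried the largest excess of WT replicate 4 after Dcx. The promoter sequences of Map2, Dcx and Elavl3 are therefore shown. Each is the stretch of 250 bases before the start site annotated by RefSeq (GRCm38.p6), read 5′ to 3′ on the strand of the gene, with CpG dinucleotides in capitals. The RefSeq starts need not be those of the Gencode genes, and the windows of Map2 and Dcx reach past the Gencode start. Map2 lies on chr1:66175273-66442583 (plus strand, ENSMUSG00000015222.17), and its promoter window at chr1:66175079-66175328 held 34 CpG. Dcx lies on chrX:143855842-143933311 (minus strand, ENSMUSG00000031285.14), and its window at chrX:143933220-143933469 held 3 CpG. Elavl3 lies on chr9:22015005-22052023 (minus strand, ENSMUSG00000003410.8), and its window at chr9:22052024-22052273 held 20 CpG.
Map2 promoter: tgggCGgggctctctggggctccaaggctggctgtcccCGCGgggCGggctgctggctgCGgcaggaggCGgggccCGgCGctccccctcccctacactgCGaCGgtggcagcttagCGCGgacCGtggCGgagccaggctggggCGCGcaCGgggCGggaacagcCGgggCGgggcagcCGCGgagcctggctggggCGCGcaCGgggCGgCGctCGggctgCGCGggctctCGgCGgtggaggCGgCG
Dcx promoter: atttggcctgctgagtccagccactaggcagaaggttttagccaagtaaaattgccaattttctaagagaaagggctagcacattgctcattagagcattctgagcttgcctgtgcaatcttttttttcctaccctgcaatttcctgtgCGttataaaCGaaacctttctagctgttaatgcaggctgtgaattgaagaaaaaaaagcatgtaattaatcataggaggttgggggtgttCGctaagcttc
Elavl3 promoter: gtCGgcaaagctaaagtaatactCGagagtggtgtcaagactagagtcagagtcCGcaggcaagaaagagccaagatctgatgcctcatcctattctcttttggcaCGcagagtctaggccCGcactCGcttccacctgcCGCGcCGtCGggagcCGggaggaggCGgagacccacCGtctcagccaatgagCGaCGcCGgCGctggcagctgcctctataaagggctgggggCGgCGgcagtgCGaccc
The median over 32851 RefSeq promoter windows of this length was 6 CpG. As many as Map2 or more were held by 3.53% of windows, as many as Elavl3 or more by 17.9%, and as few as Dcx or fewer by 37.8%. The single windows of Tubb3, Dlx1, Dlx2 and Gad1 held 21, 22, 24 and 17 CpG, and the 4 alternative starts of Elavl4 held 14, 4, 5 and 3. The second start of Dcx also held 3. An E-box (CANNTG, which is the same on both strands), the site of proneural factors, was found in 6 of these 12 windows of 8 genes, against 66.2% of all windows. Some of the 12 windows share bases, among them starts 2 and 3 of Elavl4 and both starts of Dcx, so they are not separate units. The letters CAGCACC and GGACAG, parts of the element that REST binds, were each searched on both strands and found in 1 of the 12 windows, in Tubb3 and in Map2, against 5.73% and 18.7% of all windows. These letter matches describe the sequence only, since neither methylation nor binding was measured. A link between CpG content and the variation of a gene was not tested.

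Map2 was the most abundant of the 10 genes and had the smallest coefficient of variation over WT. WT replicates 1 to 4 gave 362, 340, 354 and 342 CPM, and *Smchd1*-null replicates 1 to 3 gave 354, 327 and 348 CPM. The groups overlapped, and only *Smchd1*-null replicate 2 lay outside the WT range. The coefficient of variation was 3.06% over the 4 WT libraries, and the SD of its log2 CPM there was at percentile 0.391 of the 13305 genes, close to the least variable. Its WT mean was 349.6 ± 10.7 CPM (SD, n = 4) and its *Smchd1*-null mean 342.9 ± 13.7 CPM (SD, n = 3). The difference between genotypes was -0.04 on the log2 scale (SE 0.10, 95% interval -0.27 to 0.18, adjusted p = 0.863). The gene shares 124 exon bases with the antisense gene Gm10558, which had 2 to 12 counts per library where Map2 had 942 to 2460. Whether the counting used strand is not stated.

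Tubb3 (chr8:123411424-123422015, plus strand, ENSMUSG00000062380.4) was low in every library. It had 8.79, 10.7, 7.87 and 15.1 CPM in WT and 10.9, 13.3 and 10.4 CPM in *Smchd1*-null libraries, from 29 to 100 counts each. WT replicate 4 was the highest, and the *Smchd1*-null values lay inside the WT range. A log2 fold change of 0.33 was fitted (SE 0.24, 95% interval -0.18 to 0.84, adjusted p = 0.526). Differences within batches set *Smchd1*-null replicates 1 and 2 against WT replicate 2 alone in batch 1, and *Smchd1*-null replicate 3 against WT replicates 3 and 4 in batch 2, leaving out WT replicate 1. For Tubb3 they were 0.17 and -0.07 in log2 CPM.

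Dcx varied widely over the WT libraries. WT replicates 1 to 4 gave 11.97, 8.66, 3.15 and 36.2 CPM, from 49, 39, 12 and 211 counts, and *Smchd1*-null replicates 1 to 3 gave 3.00, 3.06 and 4.55 CPM, from 8, 23 and 21 counts. WT replicate 4 was 4.57 times the mean of the other WT libraries, and WT replicate 3 was as low as the *Smchd1*-null libraries, so the groups overlapped at their lower end. The WT mean was 15.0 ± 14.6 CPM (SD, n = 4) and the *Smchd1*-null mean 3.54 ± 0.875 CPM (SD, n = 3). The SD over WT libraries was at percentile 99.5 of all tested genes on the log2 scale. The fitted log2 fold change of Dcx was -1.38 (SE 0.56, 95% interval -2.58 to -0.18), which did not pass after adjustment (unadjusted p = 0.0269, adjusted p = 0.323). Without WT replicate 4 the WT mean was 7.92 ± 4.46 CPM and the log2 fold change -1.02 (adjusted p = 0.455). Without WT replicate 3 it was -2.09 (adjusted p = 0.162), without WT replicate 2 -1.38 (adjusted p = 0.206) and without *Smchd1*-null replicate 3 -1.48 (adjusted p = 0.156), each past 0.25. In these 3 fits 0.327%, 22.7% and 23.5% of all genes passed 0.25, and without WT replicate 2 the unadjusted p of Dcx was larger than with all libraries (0.0355). Within batches the difference in log2 CPM was -1.39 in batch 1 and -1.20 in batch 2, and the batch term itself was small (0.17, adjusted p = 0.861).

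In WT, several genes of the oligodendrocyte lineage were high and low in the same libraries as Dcx. Pdgfra, the receptor of oligodendrocyte precursors, had 40.8, 34.0, 8.13 and 68.9 CPM in WT and 19.1, 10.5 and 26.6 CPM in *Smchd1*-null samples. Sox10, a transcription factor of the lineage, had 8.06, 14.9, 2.10 and 41.3 CPM in WT and 6.01, 11.4 and 9.74 CPM in *Smchd1*-null samples. As with Dcx, WT replicate 4 was highest for both genes and WT replicate 3 lowest in WT. Mbp, a protein of myelin sheaths, was at 96.2 CPM in WT replicate 4 and at most 4.44 CPM in the other 6 libraries. Of the 9 markers of the lineage, 7 passed the filter and 5 of these were highest in WT replicate 4. Olig1 and Olig2 were not. Olig2 ranged from 654 to 822 CPM in all 7 libraries and was lowest in WT replicate 4. Olig1 had 86.0, 85.3, 98.8 and 92.1 CPM in WT replicates 1 to 4 and 102, 87.3 and 95.5 CPM in *Smchd1*-null samples. Among WT libraries both genes were highest in replicate 3, where Dcx was lowest. The summed marker level was 877 to 1236 CPM in WT and 913 to 947 CPM in *Smchd1*-null samples, and no marker passed an adjusted p of 0.25. The astrocyte list was also highest in WT replicate 4, in 7 of its 7 tested genes, with sums of 1005 to 2155 CPM in WT and 795 to 1141 CPM in *Smchd1*-null samples. In that list 1 gene passed 0.25, Aldoc, which fell (log2 fold change -0.81, adjusted p = 0.233). The part of these cells in the values of Dcx was not tested. The excess of WT replicate 4 was not confined to glial markers. It was the highest library in 11 of 24 tested microtubule and growth cone genes, but in only 1 of 16 tested neuronal RNA-binding proteins and splicing regulators.

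**Figure D3:**
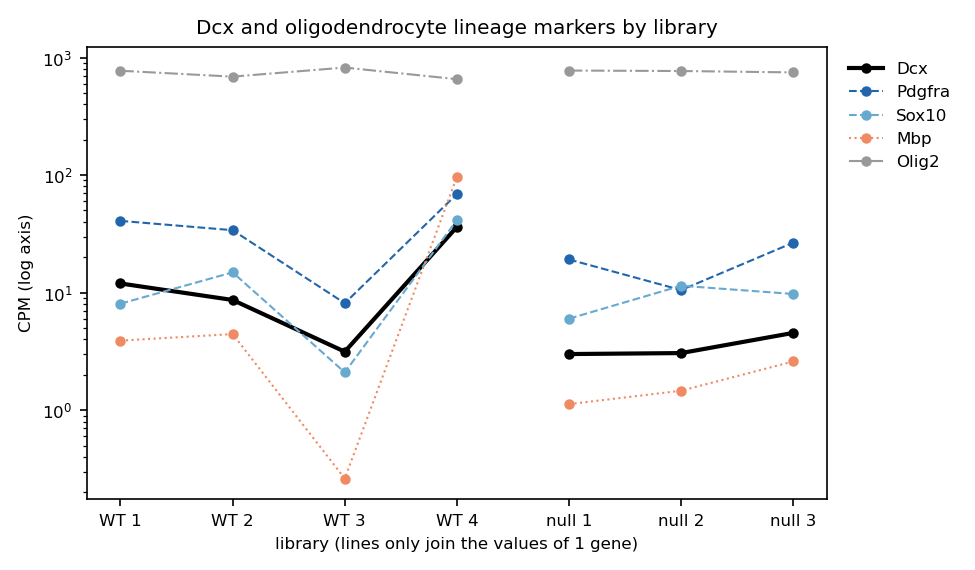
CPM on a log axis of Dcx (thick black line) and of 4 oligodendrocyte lineage markers in each library; lines only join the values of 1 gene within a genotype. Dcx, Pdgfra, Sox10 and Mbp are all lowest of WT in replicate 3 and highest in replicate 4, whereas Olig2 stays between 654 and 822 CPM.

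Stmn2 (chr3:8509360-8561606, plus strand, ENSMUSG00000027500.10) was at the limit of detection. It had 3, 3, 4 and 3 counts in WT and 1, 3 and 4 counts in *Smchd1*-null libraries, 13 against 8 in all, or 0.514 to 1.05 CPM and 0.375 to 0.866 CPM. No difference was detectable at this depth, and in a fit that kept all 36857 genes with a count its fitted difference was -0.51 on the log2 scale (SE 0.60, adjusted p = 0.869). Its relatives were more abundant. Stmn1, the stathmin of dividing cells, ranged from 29.4 to 81.8 CPM and Stmn3 from 36.4 to 108 CPM. Stmn4 ranged from 0.666 to 8.63 CPM and did not pass (log2 fold change 1.73, SE 0.53, adjusted p = 0.280).

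The ELAV genes differed from each other in how they varied. For Elavl3, WT replicates 1 to 4 gave 17.3, 23.5, 23.9 and 58.1 CPM and *Smchd1*-null replicates 1 to 3 gave 35.3, 34.5 and 27.1 CPM. All 3 *Smchd1*-null libraries lay above WT replicates 1 to 3 and below WT replicate 4, so the groups overlapped through that library alone. It stood at 2.69 times the mean of the other WT libraries. The WT mean was 30.7 ± 18.5 CPM (SD, n = 4), against 32.3 ± 4.53 CPM in *Smchd1*-null samples (SD, n = 3), and without WT replicate 4 it was 21.6 ± 3.68 CPM. Fitted log2 fold changes were 0.42 (SE 0.24, 95% interval -0.10 to 0.95, adjusted p = 0.432) with all libraries and 0.65 (adjusted p = 0.367) without WT replicate 4. With all libraries limma gave sample weights of 0.447 to WT replicate 4 and 2.03, 1.83 and 0.674 to *Smchd1*-null replicates 1 to 3. The edgeR test, which was run without these weights, gave 0.052 (adjusted p = 0.983). The difference in log2 CPM was 0.56 in batch 1 and -0.46 in batch 2, the batch of WT replicate 4. Elavl3 shares 256 exon bases with Gm49318 on the same strand, to which 0 counts were assigned in all 7 libraries.

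Elavl4 (chr4:110203722-110351909, minus strand, ENSMUSG00000028546.17) had 69.4, 55.7, 62.4 and 57.3 CPM in WT and 48.8, 51.2 and 63.4 CPM in *Smchd1*-null libraries. *Smchd1*-null replicates 1 and 2 were below all WT libraries, and replicate 3 lay above 3 of the 4. The fit to Elavl4 gave -0.26 on the log2 scale (SE 0.14, 95% interval -0.55 to 0.04, adjusted p = 0.405), and it passed 0.25 only when *Smchd1*-null replicate 3 was left out (-0.32, adjusted p = 0.196), a fit in which 23.5% of all genes passed. Other members of the family were measured beside it. Elavl1, which is expressed in most cells, ranged from 90.4 to 129.7 CPM and Elavl2 from 10.6 to 22.5 CPM, and neither passed 0.25. The coding sequences of these 4 genes are related, so a read may have been assigned to the wrong member.

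Genes of the interneuron pathway were at or near 0 among the 10. Dlx1 (chr2:71528113-71533981, plus strand, ENSMUSG00000041911.3) had 1, 4, 0 and 0 counts in WT and 1, 9 and 1 counts in *Smchd1*-null libraries. Dlx2 (chr2:71543408-71546754, minus strand, ENSMUSG00000023391.8) had 7, 0, 0 and 0 counts in WT and 0, 2 and 0 counts in *Smchd1*-null libraries. The Dlx1 reads were spread over 5 libraries, with most in *Smchd1*-null replicate 2 and WT replicate 2, while 7 of the 9 Dlx2 reads came from WT replicate 1. A library with 0 counts allows up to 1.13 CPM in the smallest library and 0.399 CPM in the largest, for counting error only. Neither was tested after filtering, and in the fit to all genes with a count the log2 fold changes were 1.30 (SE 0.83, adjusted p = 0.822) for Dlx1 and -0.31 (SE 0.84, adjusted p = 0.936) for Dlx2. Dlx1 shares 335 exon bases with the antisense gene Dlx1as, which had 0 to 4 counts per library, so the few Dlx1 reads are uncertain as to their strand. Gad1 (chr2:70553072-70602014, plus strand, ENSMUSG00000070880.10) had 4, 0, 22 and 18 counts in WT and 8, 13 and 17 counts in *Smchd1*-null libraries, or 0.977, 0, 5.77 and 3.09 CPM and 3.00, 1.73 and 3.68 CPM. The *Smchd1*-null values lay within the WT range. Its fitted log2 fold change was 0.67 with the widest interval of the set (SE 0.81, 95% interval -1.06 to 2.40, adjusted p = 0.710), and without WT replicate 2, the library at 0, it was -0.25. Gad1 was higher in batch 2 by 1.82 on the log2 scale in the fit with the batch as a term (SE 0.63, adjusted p = 0.0722).

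Rest (chr5:77265491-77286432, plus strand, ENSMUSG00000029249.15) had the smallest limma p of the set between genotypes. In the edgeR test Dcx had the smallest (unadjusted p = 0.00672), against 0.0882 for Rest. WT replicates 1 to 4 gave 30.3, 22.9, 30.4 and 28.3 CPM and *Smchd1*-null replicates 1 to 3 gave 16.1, 17.3 and 29.0 CPM, from 43 to 165 counts. *Smchd1*-null replicates 1 and 2 were below every WT library, and replicate 3 was within the WT range. In the limma fit the sample weights of *Smchd1*-null replicates 1 and 2 were 2.03 and 1.83, against 0.674 for replicate 3. Its mean was 28.0 ± 3.53 CPM over WT (SD, n = 4) and 20.8 ± 7.12 CPM over *Smchd1*-null samples (SD, n = 3). The fitted change was -0.63 on the log2 scale (SE 0.19, 95% interval -1.05 to -0.22), which did not pass after adjustment (unadjusted p = 0.00568, adjusted p = 0.280). It passed 0.25 without *Smchd1*-null replicate 3 (-0.76, adjusted p = 0.0501), without WT replicate 2 (-0.72, adjusted p = 0.0913) and with the stricter filter of 10 counts in every sample (-0.64, adjusted p = 0.245), fits in which 23.5%, 22.7% and 3.06% of all genes passed. Rest did not pass with edgeR (-0.42, adjusted p = 0.858) or with a block for the replicate number (-0.36, limma, adjusted p = 0.777).

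The 3 lowest Rest values were the 3 libraries sequenced in batch 1 alone. Within batch 1 the difference in log2 CPM between *Smchd1*-null and WT samples was -0.44, with 1 WT library, and within batch 2 it was -0.02, with 1 *Smchd1*-null library. With the share of batch 2 as a covariate the change between genotypes was -0.29 (adjusted p = 0.686), and Rest was higher in batch 2 by 0.60 on the log2 scale (SE 0.16, adjusted p = 0.0267). Batch 2 used a later version of the library kit. Of the 7 tested genes, 3 differed between batches at an adjusted p under 0.25, all of them higher in batch 2: Rest, Gad1 and Elavl4 (0.25, SE 0.12, adjusted p = 0.183). Of all genes, 38.7% did so.

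Among the 21 pairs of tested genes, log2 CPM of Rest and Elavl4 went together most closely across the 7 libraries. Pearson's r was 0.918 (exact permutation p = 0.000794, adjusted over the 21 pairs p = 0.0167) and Spearman's rho 0.893 (exact permutation p = 0.0123, adjusted p = 0.258), both two-sided. Without the 2 libraries farthest from the median of Elavl4, WT replicate 1 and *Smchd1*-null replicate 1, r was 0.922. It was 0.894 with genotype means removed, 0.898 with the batch removed and 0.9497 with both removed. Each batch alone holds 3 libraries, too few for a value within it, and the points share batch and depth. Tubb3 and Elavl3 followed with r = 0.854 (exact permutation p = 0.0149, adjusted p = 0.156). The lowest was r = -0.717 between Tubb3 and Map2, and no pair passed an adjusted p of 0.05 by Spearman's rho.

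**Figure D4:**
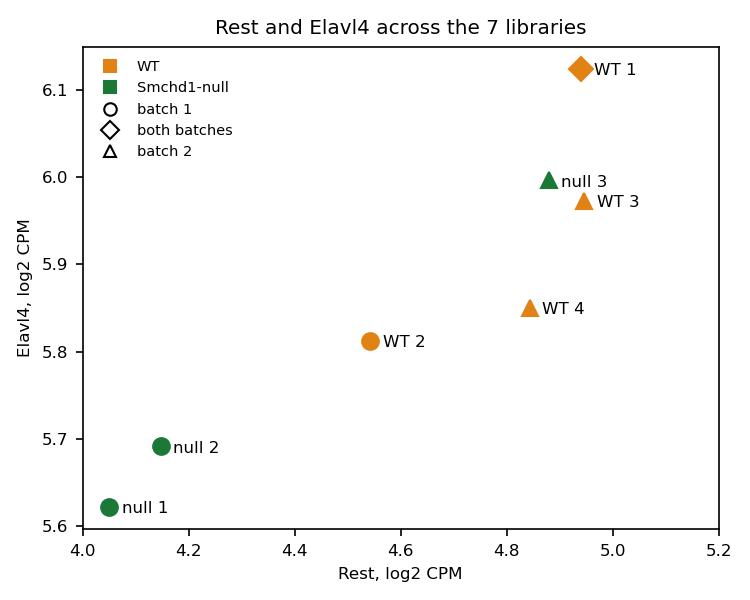
Log2 CPM of Elavl4 against log2 CPM of Rest in the 7 libraries, with genotype by colour and batch by shape. *Smchd1*-null replicates 1 and 2 sit at the lower left and *Smchd1*-null replicate 3 among the WT libraries, and r over the 7 points is 0.918.

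For each tested gene the 2 most similar of the 13305 profiles were taken by Pearson's r over the 7 libraries, as a description only. They were Sash1 (0.993) and Emc1 (0.985) for Dcx, Thy1 (0.989) and Gm14760 (0.987) for Elavl3, and Smu1 (0.993) and Zfp512b (0.988) for Elavl4. Rest was followed most closely by 4931428F04Rik (0.991) and 4632415L05Rik (0.987), Tubb3 by Pdk1 (0.985) and Mapk1ip1 (0.985), Map2 by Mnd1 (0.984) and Neto1 (0.979) and Gad1 by Rnf150 (0.975) and Utp23 (0.969). The number of genes with r of at least 0.95 ranged from 7 for Gad1 and 9 for Map2 to 43 for Elavl4 and Rest, and with 7 libraries such values arise for many gene pairs.

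The wider pathways around these genes were described by 6 lists with 158 other genes, of which 111 passed the filter. Of these, 4 (3.60%) passed an adjusted p of 0.25 and 1 passed 0.05, where 1.08% and 0.0902% of all genes did, and 30 (27.0%) had an unadjusted p under 0.05, where 13.9% of all genes did. The lists were chosen with earlier results of these data known, so these shares are a description and no evidence about the lists. Among 30 microtubule and growth cone genes, the partners of Tubb3, Map2, Dcx and Stmn2, 24 were tested, 2 rose and 1 fell, with a median log2 fold change of 0.09, and 10 (41.7%) had an unadjusted p under 0.05, 6 higher and 4 lower. Stmn3, a stathmin of neurons (chr2:181306459-181314500), had 36.4, 52.4, 50.3 and 74.4 CPM in WT and 108, 88.8 and 70.6 CPM in *Smchd1*-null libraries. Its groups overlapped in 1 WT library, replicate 4, and it rose by 0.92 (SE 0.19, adjusted p = 0.126). Map6, which stabilises microtubules (chr7:99267447-99337137), had 9.77, 14.7, 9.70 and 7.72 CPM in WT and 24.4, 17.7 and 19.3 CPM in *Smchd1*-null libraries. The groups did not overlap, and it rose by 0.95 (SE 0.23, adjusted p = 0.191), but not with the batch as a covariate (adjusted p = 0.354) or without WT replicate 4 (adjusted p = 0.364). Ank2, an adaptor between membrane and cytoskeleton (chr3:126921612-127499350), had 386, 272, 334 and 404 CPM in WT and 183, 191 and 286 CPM in *Smchd1*-null libraries. Only *Smchd1*-null replicate 3 overlapped WT, and Ank2 fell by 0.79 on the log2 scale (SE 0.15, adjusted p = 0.0917).

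Of 27 interneuron and GABA lineage genes, 13 were tested, 0 rose and 1 fell, with a median log2 fold change of 0.15, and 7 (53.8%) had an unadjusted p under 0.05, 3 higher and 4 lower. The gene that fell was Maf (chr8:115682942-115707794), a transcription factor of cortical interneurons that other cell types also use, and it alone passed 0.05. It had 47.6, 32.4, 28.6 and 55.6 CPM in WT and 12.8, 12.4 and 24.5 CPM in *Smchd1*-null libraries. The groups did not overlap, with a difference of -1.45 on the log2 scale (SE 0.25, adjusted p = 0.0498). The adjusted p was 0.0841 with the batch as a covariate and 0.0799 without WT replicate 4. Maf shares 440 exon bases with the antisense gene Gm15655, which had 0 counts. The edgeR test gave adjusted p-values of 0.412 for Maf, 0.696 for Map6 and 0.858 for Ank2 and Stmn3, so none of the 4 passed there. In the same list 4 genes had 0 counts in every library, Slc32a1 (the vesicular GABA transporter), Lhx8, Isl1 and Sst, and Etv1, an abundant transcription factor of the list, did not pass (adjusted p = 0.284) although its groups did not overlap.

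In the other 4 lists 0 genes passed 0.25 (limma). Among 20 neuronal RNA-binding proteins and splicing regulators, 16 were tested with a median log2 fold change of -0.08, 6 (37.5%) had an unadjusted p under 0.05, 4 higher and 2 lower, and the most abundant were Celf2 (-0.19, adjusted p = 0.435), Khdrbs3 (0.51, adjusted p = 0.275) and Celf1 (-0.12, adjusted p = 0.627). Among 27 proneural and other commitment factors, 15 were tested with a median of -0.05, and 2 (13.3%) had an unadjusted p under 0.05, 1 in each direction. Sox4 (480 to 738 CPM) and Tcf4 (421 to 531 CPM) were abundant in every library, while Neurog1, Neurod2, Neurod6 and Nhlh1 of the same list had 0 counts in all 7. All 24 genes of the REST corepressor complex and its regulators were tested, with a median of -0.08, 0 higher and 1 lower (4.17%) at an unadjusted p under 0.05, and Hdac2, Smarca4 and Sin3b, its most abundant members, had log2 fold changes of -0.04, 0.21 and -0.12. Of 30 known neuronal targets of REST, 19 were tested with a median of 0.25, against 0.0049 over all genes tested. Of the 19, 14 had a positive and 5 a negative value. At an unadjusted p under 0.05, 4 were higher and 0 lower (21.1%), against 13.9% of all genes. These 4 were Bdnf, Chga, Celsr3 and Mapk8ip2, and the smallest adjusted p among them was 0.297 (Celsr3, limma). Chga had 1 to 19 and Celsr3 1 to 20 counts per library. A link to the level of Rest was not tested. The most abundant targets were Gria2 (-0.11, adjusted p = 0.687), Kcnc1 (0.11, adjusted p = 0.800) and Vamp2 (0.0035, adjusted p = 0.992).

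**Figure D5:**
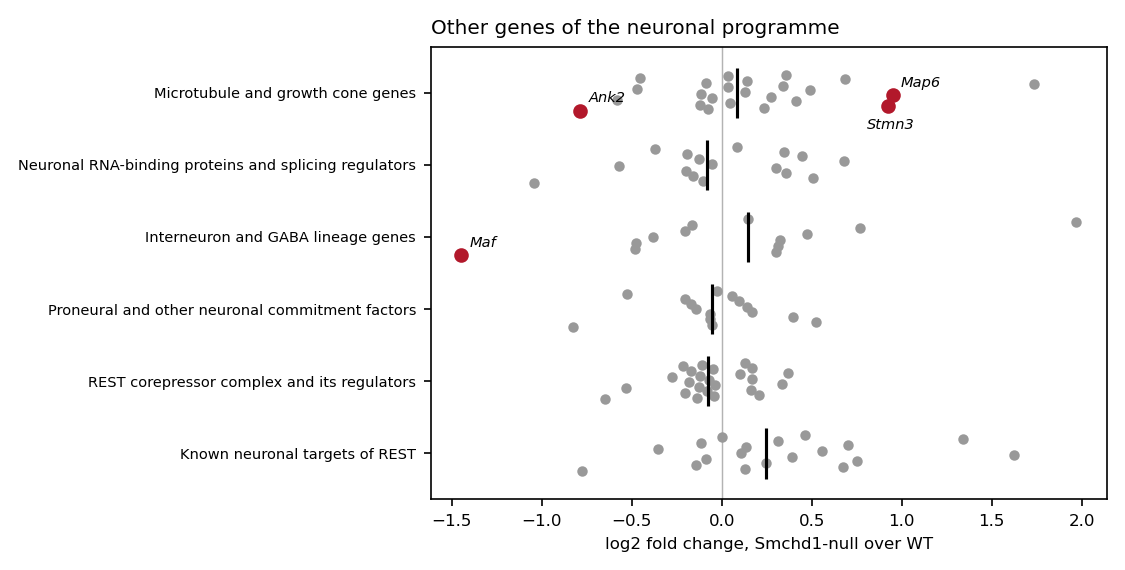
Log2 fold change of *Smchd1*-null over WT for the 111 tested genes of the 6 wider lists, 1 point per gene, with the list median as a vertical bar and genes past an adjusted p of 0.25 in red. The list medians lie between -0.08 and 0.25, and the 4 red genes are Stmn3, Map6, Ank2 and Maf.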

How the data were processed

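Counts were analysed for 7 NSC samples, 4 WT and 3 *Smchd1*-null. The deposited values are raw whole-number counts per gene, with the gene length in bases. To make them, the authors aligned base-called reads to mm10 with minimap2 2.17, ran featureCounts in long-read mode on primary alignments and summed the runs of WT replicate 1 over both batches. The strand setting of the counting is not given in the sources used here. Of 55335 identifiers, 55154 matched Gencode symbols with the version ignored. Genes were kept with filterByExpr (13305 genes) and scaled by TMM, and log2 CPM used a prior count of 2. As in the study, limma's voomWithQualityWeights was fitted with a genotype term alone, two-sided, with Benjamini-Hochberg adjustment over 13305 genes and thresholds of 0.05 and 0.25. It weights samples by their similarity within the genotype, here from 0.447 (WT replicate 4) to 2.03 (*Smchd1*-null replicate 1). Where no tool is named, an adjusted p-value comes from limma. Software was R 4.3.3, limma 3.58.1, edgeR 4.0.16 and DESeq2 1.42.0. Correlations were tested by exact permutation.

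Other settings tried were DESeq2, the quasi-likelihood test of edgeR, unweighted voom, RLE factors, library size alone, all 36857 genes with a count, 10 counts in every sample, a covariate for the share of batch 2 (also leaving out WT replicate 1), a block for the replicate number, each sample's gene length trend removed by lowess with span 0.3 (also together with the block) and each replicate left out. The code was tested on simulated counts. For correlations, leaving out WT replicate 4 and removing the batch were chosen after seeing the data. The 10 genes, the 6 wider lists and the marker lists were chosen with earlier results of these data known. Named genes were the 10 members, list genes past 0.25 and the most abundant tested genes of each list up to 3, except that some list genes are not reported here; further markers, relatives and genes at 0 were named after their values were seen. Promoter windows were those of RefSeq (GRCm38.p6), which matched 8 of the 10 genes. Coordinates are 1-based.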

Additional observations from a re-analysis of the deposited data

How the results depend on the processing

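The count of the 10 genes past an adjusted p of 0.05 was 0 under all 19 alternatives, of which the filter of 10 counts in every sample left Dcx and Gad1 untested. Past 0.25 it was also 0, except for 1 (Rest) with 10 counts in every sample and a range of 0 to 3 when 1 replicate was left out: 3 without *Smchd1*-null replicate 3, 2 without WT replicate 2 and 1 without WT replicate 3, where 3153, 2924 and 43 of all genes passed. Of the directions of single genes, Map2 turned to 0.15 with the length trend removed and 0.052 with the length trend removed and the replicate block, and Gad1 ranged from -0.25 (without WT replicate 2) to 1.88 (without WT replicate 3) with 1 replicate left out; the cause was not tested. For the wider lists, 4 genes passed 0.25, against 0 with edgeR, voom without weights, all genes with a count or the batch covariate without WT replicate 1, 1 with DESeq2, 8 with 10 counts in every sample and 8 with the length trend and the block, and 0 (without WT replicate 1 or *Smchd1*-null replicates 1 or 2) to 38 (without *Smchd1*-null replicate 3) with 1 replicate left out, where leaving out WT replicate 2 gave 36. Over all genes, 12 passed 0.05 and 144 passed 0.25. The counts were 1 and 8 with edgeR, 17 and 32 with DESeq2, 1 and 10 without weights, 2 and 22 with all genes with a count, 9 and 346 with 10 counts in every sample, 19 and 74 with the batch covariate, 5 and 31 with it and without WT replicate 1, 9 and 80 with the length trend removed and 48 and 175 with trend and block. Leaving out 1 replicate gave 1 to 161 past 0.05 and 1 to 3153 past 0.25, both highest without *Smchd1*-null replicate 3.

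In the fit with a replicate block, 23 genes passed 0.05 and 129 passed 0.25, 0 of them among the 10, and 5 of the wider lists. Samples of the same number had deviations that correlated with r = -0.04, 0.36 and 0.09, so the numbers were not taken to pair the samples. Depth limits Stmn2, Dlx1 and Dlx2, which had 0 to 9 counts per library.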

Other observations

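Sp8, a zinc finger factor of olfactory bulb interneurons, belongs to the interneuron lineage list and was singled out after its values were seen. It had 0.488, 2.44, 5.77 and 0.343 CPM in WT and 6.38, 5.86 and 9.52 CPM in *Smchd1*-null libraries, which did not overlap. It did not pass (log2 fold change 1.97, SE 0.59, adjusted p = 0.278).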
